A study of Bos taurus with 16 samples.

Results

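In the table of normalised reads for bovine oocytes and embryos, 12 of 27393 loci were low in both mature oocytes and present in every 2- and 4-cell embryo. They were chosen by their values: loci with a gene name other than a CUFF name (a label for loci assembled from the reads), both oocyte values under 50, and all 4 values of the 2- and 4-cell embryos at 50 or more and at least 4 times the higher oocyte value. These genes are GNL2 (XLOC_050519), DNTTIP2 (XLOC_050255), ALG1 (XLOC_042949), DERL2 (XLOC_027131), MDM2 (XLOC_057364), PHKA2 (XLOC_075477), ANKRD13A (XLOC_022051), CD72 (XLOC_067371), LHFPL3 (XLOC_053570), BNC2 (XLOC_066880) and the loci LOC614614 (XLOC_043054) and LOC100849584 (XLOC_024313), which carry no gene symbol. Because the rule used the MII, 2C and 4C values, the gain itself is described here without a test, and tests are confined to the later stages.

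The series holds Bos taurus oocytes matured in vivo and embryos developed in vivo, with no treatment or genetic change named in the labels. There were 8 stages with 2 samples each, and each sample was a single oocyte or embryo: MII oocytes (MII), 2-, 4-, 8- and 16-cell embryos (2C, 4C, 8C, 16C), early morulae (EM), compact morulae (CM), and lastly blastocysts (BL). Each RNA was amplified in 2 rounds before sequencing. Breed, age of the donors and sire are not in the labels.

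The mature oocyte carries a store of maternal mRNA and does not transcribe. In cattle the main activation of the embryonic genome (EGA) comes around the 8-cell stage, and a small amount of transcription precedes it. Stored mRNAs can also change in the length of their poly(A) tails without any transcription. Tail length was not measured here, so newly made and stored transcripts cannot be told apart in these values. The values are relative to the other transcripts of a sample, so the amount of a transcript per embryo is not measured, and in embryos of several cells fewer cells that hold it and less of it per cell cannot be told apart.

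Values below are normalised reads, that is, the reads of a locus divided by a size factor for the sample. They are not divided by transcript length, so levels were compared within a gene across samples and not between genes. Recovered reads numbered between 607672 and 3379426 per sample. A locus with 3 reads, taken as the detection floor, had a value between 1.09 and 5.40 depending on the sample, for counting error only. The summed oocyte markers, led by H1FOO, lay between 15535 and 24711 in MII, between 4101 and 7694 in 2C and 4C, and between 6.09 and 9.51 in BL. Trophectoderm markers summed to between 1245 and 1330.0 in BL and between 12.04 and 21.2 in 2C and 4C, with KRT8, KRT18, GATA3 and TFAP2C carrying the sum. CDX2 and IFNT are listed at 0 in both blastocysts, and IFNT2 had 0 and 4.75 in BL. Of 11 cumulus and granulosa markers, 5 are at 0 in MII, 2C and 4C, among them FOXL2, AMH and INHA, and the sum over the list lay between 1370.0 and 2098 in MII and between 1258 and 2626 in 2C and 4C, most of it from STAR. HAS2 was next, with 143 and 245 in MII and between 98.1 and 367 in 2C and 4C, followed by CYP19A1, with one locus at 7.38 and 24.5 in MII and between 7.12 and 32.3 in 2C and 4C, and FSHR, with 11.1 and 22.3 in MII and between 1.82 and 6.46 in 2C and 4C. Of the 4 oviduct epithelium markers, OVGP1 had 0.923 and 1.06 in MII, 89.4 in 2C replicate 1 and 0 in 2C replicate 2 and both 4C embryos, and the other 3 summed to no more than 1.62 in 2C and 4C. In BL the cumulus and granulosa list summed to between 590 and 629, with STAR at 583 and 612 and HAS2 at 0 in both. Whether cells other than the oocyte or embryo contributed to the values of the 12 loci was not tested. The 4 sperm markers are at 0 in every MII, 2C and 4C sample. The 8C pair stood apart from the other pairs: the correlation of its replicates over 7665 loci (Spearman, across loci, which are not independent) was 0.677, against 0.814 to 0.932 at the other stages, and the oocyte markers summed to 37.8 in 8C replicate 1 and 1789 in replicate 2.

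Few loci met all limits. Of 24820 loci with a gene name, 22327 had both MII values under 50. Among these, 24 passed the limits in both 2C embryos, 89 in both 4C embryos and 12 in both stages, while none of the 2573 CUFF loci did. The same limits applied to CPM (reads scaled to an equal total per sample) gave 38 loci, 8 of them among the 12. The number also rested on single libraries: without MII replicate 1 it was 64, and without 2C replicate 1 it was 60. Without MII replicate 2 it was 23, and leaving out any other 2C or 4C sample gave between 14 and 17. None of the 12 was absent from oocytes, since each had between 4 and 26 reads in either MII sample against 67 to 425 reads in a 2C or 4C sample. The gain was a rise from a low level, not from 0. The members closest above the limit of 50 were BNC2, DERL2 and LHFPL3, with lowest 2C or 4C values of 53.01, 53.8 and 56.2. NOTO, CORO6 and C23H6orf25 fell just short at 47.1, 45.9 and 41.9. On the fold limit ALG1 (4.02), MDM2 (4.07) and DNTTIP2 (4.09) lay just inside, and CNOT1 (3.95), PRDX2 (3.92) and ARHGEF26 (3.87) just outside.

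**Figure D1:**
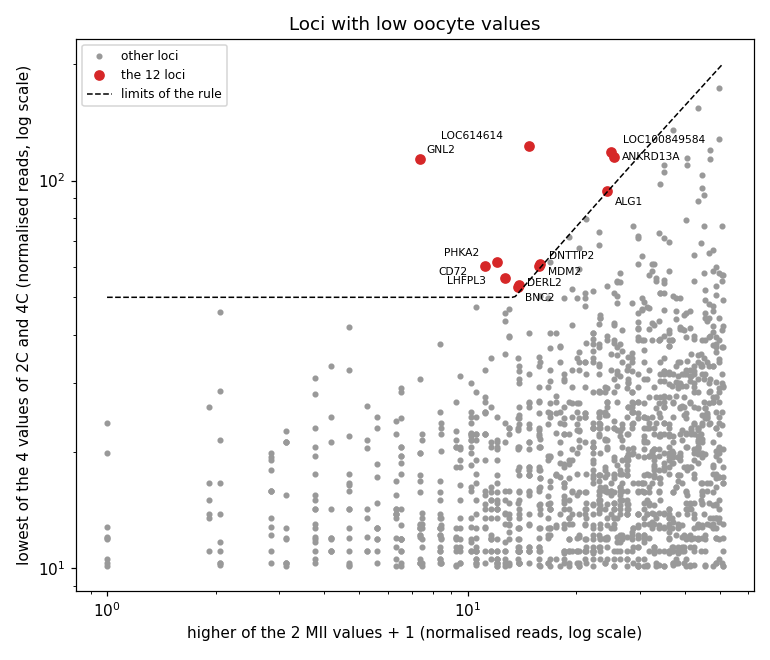
Each point is 1 locus with both MII values under 50 and all 2C and 4C values at 10 or more (1561 loci). The horizontal axis is the higher MII value plus 1 and the vertical axis the lowest of the 4 values of 2C and 4C, both in normalised reads on log scales. The 12 loci (red) lie on or above the dashed limits, GNL2 and LOC614614 farthest from them and ALG1, MDM2, DNTTIP2, DERL2 and BNC2 close to them.

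The mean over 2C and 4C exceeded the MII mean by 5.11 to 27.1 times (median 7.03). Together the 12 loci took between 0.0067 and 0.0080% of all reads in MII and between 0.0902 and 0.107% in 2C and 4C. From 2C to 4C the mean was higher for 10 of 12 members, but for 9 of 12 the values of the stages overlapped. Over the 6944 loci with at least 10 reads on average, 46.8% had the higher mean in 4C and 63.3% overlapped, and the median log2 step was -0.03, against 0.26 over the members. Both stages had chosen the members, so nothing is read from these counts. The deeper 2C sample, replicate 2, lay above replicate 1 for 10 of 12. The share over all loci was not counted and a part of depth was not tested, so nothing is read from it. As background to these values, the median log2 step from MII to 2C was 0.11 over the same 6944 loci and 2.64 over the 12, a difference that the rule itself imposes.

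Oocyte genes took different courses. Of 8 oocyte markers, 3 (ZAR1, ZP4 and NLRP5) were higher in every 2C and 4C sample than in both MII samples, 1 (H1FOO) was lower, and ZP2, GDF9, MOS and ZP3 overlapped. Over the 6944 loci, 19.5% were higher and 16.1% lower without overlap. ZP4, a protein of the zona pellucida around the oocyte, had between 48.9 and 86.2 in MII and between 194 and 339 in 2C and 4C. NLRP5, a maternal effect gene, had between 10.6 and 14.8 in MII and between 33.3 and 60.0 in 2C and 4C. H1FOO is the linker histone of the oocyte. BMP15, a further oocyte marker, is not counted because it sits in a stretch of 2578 loci in table order with a value of 0 throughout. Whether these markers have a part in the values of the 12 loci was not tested.

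After 4C the members diverged. The ratio of the 8C mean to the 4C mean ran from 0.03 for MDM2 to 3.78 for ALG1, and it was above 1 for ALG1, GNL2 (2.18) and LOC614614 (1.77) and below 1 for the other 9. The 8C means join unlike replicates, 1009 and 233 for ALG1, 202 and 526 for GNL2 and 429 and 203 for LOC614614. The median step from 4C to 8C was -1.52 on the log2 scale, beside -0.05 over the 6944 loci, and since the 4C values had chosen the members it is given without a test. The 12 loci together took between 0.0726 and 0.126% of reads in the later samples. Grouped by their later values, 4 members stayed above both oocytes throughout, with at most 3 of the 10 later samples under the lowest 2C or 4C value, 4 fell but stayed above both oocytes in at least 9 of the 10 later samples, and 4 came back to the oocyte level or below it. These groups were drawn after the values were seen, with no test: the last holds members with at least 8 of the 10 later samples at or below the higher MII value, and the middle one the remaining members with at least 9 of 10 later samples under the lowest 2C or 4C value.

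**Figure D2:**
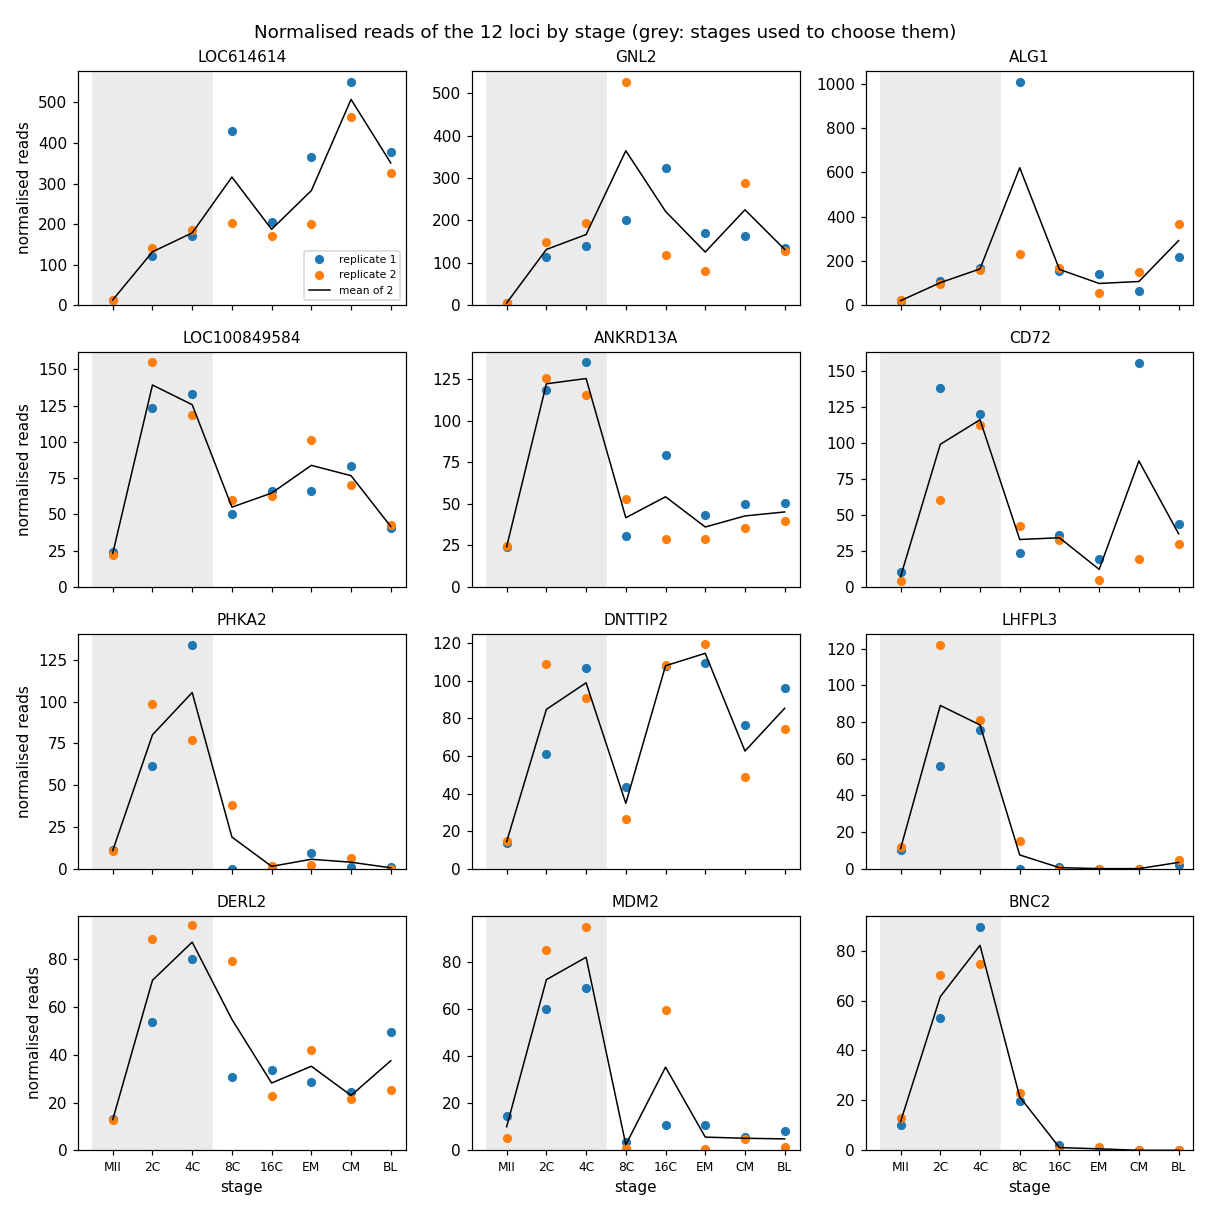
Normalised reads of each locus (vertical axes, linear and separate for each panel) at the 8 stages (horizontal axis). Points are single oocytes or embryos and lines the mean of 2, and the grey band marks the samples used to choose the loci. LOC614614, GNL2, ALG1 and DNTTIP2 stay above both oocytes in every later sample, DNTTIP2 with lower values in 8C than in any 2C or 4C embryo, while PHKA2, LHFPL3, MDM2 and BNC2 return to or below their oocyte values in at least 8 of 10 later samples.

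Among the members that stayed above both oocytes throughout with few samples below the 2C and 4C range, GNL2 encodes a GTPase of the nucleolus that takes part in building the large ribosomal subunit. It had 4.62 and 6.38 normalised reads in MII (5 and 6 reads), 114 and 149 in 2C and 140.2 and 193 in 4C. No member had a larger rise, with a mean over 2C and 4C 27.1 times that of MII. In 8C it reached 202 and 526. It then had 324 and 118 in 16C, 170.0 and 80.9 in EM, 163 and 287 in CM and 135 and 128 in BL. All 10 later samples stayed far above both oocytes, although the replicates of 8C, 16C and EM differed by more than 2 times.

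DNTTIP2 is also a nucleolar protein, which binds the polymerase terminal deoxynucleotidyltransferase. Its values were 13.8 and 14.9 in MII, 60.9 and 109 in 2C and 107 and 91.0 in 4C. The 8C embryos were lowest after MII, with 43.2 and 26.4, under every 2C and 4C embryo. From there it had 108 and 108 in 16C, 109.7 and 119.6 in EM, 76.5 and 48.8 in CM and 96.4 and 74.5 in BL. Every sample from 16C to BL lay above both 8C embryos.

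ALG1 is the mannosyltransferase that adds the first mannose to the dolichol-linked glycan used for N-glycosylation in the endoplasmic reticulum (ER). It had 18.5 and 23.4 in MII, 109.99 and 94.2 in 2C and 168 and 161 in 4C. The 8C embryos disagreed, with 1009 and 233. Later values were 156 and 168 in 16C, 141 and 56.7 in EM, 66.5 and 148 in CM and 218 and 366 in BL. Both blastocysts lay above all 4 morulae.

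LOC614614, a protein-coding gene in RefSeq without a symbol, had 12.9 and 13.8 in MII, 123 and 141 in 2C and 171 and 186 in 4C. It had 429 and 203 in 8C and 205 and 169.8 in 16C. In EM it had 366 and 199, in CM 551 and 463 and in BL 376 and 325. It was the member with the most later samples, 9 of 10, above its highest 2C or 4C value, and CM was its highest stage at 507 ± 61.7 (SD, n = 2).

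Of the members that fell in part, DERL2 is a derlin, a membrane protein of the ER that helps export misfolded proteins for degradation. It had 12.9 and 12.8 in MII, 53.8 and 88.7 in 2C, 80.3 and 94.2 in 4C and 30.6 and 79.1 in 8C. It then had 33.7 and 22.6 in 16C, 28.6 and 41.8 in EM, 24.4 and 21.6 in CM and 49.7 and 25.4 in BL. These 8 values are all above both oocytes and below every 2C and 4C embryo.

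ANKRD13A, an ankyrin repeat protein that binds ubiquitin chains on internalised receptors, had 24.0 and 24.5 in MII, 119 and 126 in 2C and 136 and 115 in 4C. In 8C it had 30.6 and 52.8 and in 16C 79.5 and 29.1. The morulae had 43.3 and 28.9 in EM and 49.9 and 35.7 in CM, and the blastocysts 50.7 and 39.6. All 10 later samples lay between 28.9 and 79.5, so none overlapped with the oocytes or with the 2C and 4C embryos.

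LOC100849584, for which RefSeq gave no entry under this name, showed the same order, with 24.0 and 22.3 in MII, 123 and 155 in 2C, 133 and 119 in 4C and 50.4 and 59.6 in 8C. After that it had 66.4 and 63.1 in 16C, 66.5 and 101 in EM, 83.1 and 70.4 in CM and 40.6 and 42.8 in BL. Every later sample lay between the oocytes and the 2C and 4C embryos, and both blastocysts were below all 4 morulae.

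CD72 encodes a lectin-like receptor best known from B cells. It had 10.2 and 4.25 in MII, 138 and 60.2 in 2C, 119.9 and 112 in 4C and 23.4 and 42.4 in 8C. The compact morulae held 155 and 19.7, so that CM replicate 1 exceeded every 2C and 4C embryo. The remaining samples had 35.9 and 32.3 in 16C, 19.3 and 5.08 in EM and 43.6 and 30.1 in BL, under all 2C and 4C embryos. Of the 4 white blood cell markers, PTPRC, CD14 and ITGAM are at 0 in 2C and 4C, where the list summed to no more than 1.84. ITGAM sits in the stretch of the table that is 0 throughout, so its value tells nothing.

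Among the members that returned to the oocyte level, BNC2 encodes a zinc finger protein, basonuclin 2. It had 10.2 and 12.8 in MII, 53.01 and 70.1 in 2C and 89.5 and 74.7 in 4C. The 8C embryos still had 19.8 and 22.9, or 11 and 20 reads. From 16C on it is listed at 0 in 6 of 8 samples, and the others, 2.18 in 16C and 1.17 in EM, rest on 2 and 3 reads, at or under the detection floor.

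PHKA2 is a regulatory alpha subunit of phosphorylase kinase, the enzyme that switches on glycogen breakdown. It had 11.1 and 10.6 in MII, 61.7 and 98.5 in 2C and 134 and 77.2 in 4C. The 8C embryos differed, with 0 and 37.8. It had 1.09 and 1.62 in 16C, 9.27 and 1.95 in EM, 1.11 and 6.57 in CM and 1.01 and 0 in BL. From 16C on no sample had more than 12 reads, and all 8 lay under both oocytes.

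LHFPL3, a tetraspan membrane protein, had 10.2 and 11.7 in MII, 56.2 and 122 in 2C and 75.6 and 81.2 in 4C. In 8C it had 0 and 14.9, or 0 and 13 reads. It is listed at 0 in 6 of the 10 later samples, the other samples had 1.09 in 16C and 2.03 and 4.75 in BL, and only 8C replicate 2 exceeded the floor of 3 reads.

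MDM2 is a ubiquitin ligase that marks other proteins, and itself, for degradation. It had 14.8 and 5.32 in MII, 60.1 and 85.0 in 2C and 69.2 and 95.0 in 4C, then 3.6 and 1.15 in 8C, which is 2 and 1 reads. The 16C embryos had 10.9 and 59.8, and they differed by more than 5 times. It then had 10.8 and 0.391 in EM, 5.54 and 4.69 in CM and 8.12 and 1.58 in BL. Apart from 16C replicate 2, with 37 reads, every later sample had at most 14 reads and lay below the higher oocyte value.

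The 10 later samples, which the rule did not use, were compared between stages with limma on log2(value + 1) over 7665 loci, at a Benjamini-Hochberg adjusted p of 0.05, and differences are on that scale, which understates changes of low loci. LHFPL3 was too low to be tested, and BNC2 passed the filter on low values through its 8C reads alone (11 and 20 reads, against 0 to 3 reads in each later sample), so that a difference between 8C and later stages was fixed for it in advance. MDM2 passed that filter only through 16C replicate 2 and EM replicate 1 (37 and 14 reads). With 2 and 1 reads in 8C, a rise after 8C was favoured for it in advance. Of 11 members tested, none had a stage effect from 8C to BL, where 3.37% of all loci were called. This count does not set the members apart from other loci. Leaving BNC2 aside (adjusted p = 0.0624), DNTTIP2 (adjusted p = 0.128) and ALG1 (adjusted p = 0.143) had the lowest values in limma, and both had an unadjusted p under 0.05, as 26.7% of all loci did. DESeq2 called ALG1 beside BNC2, where it called 12.5% of all loci, and edgeR called none, where it called 3.67%.

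The mean of 16C to BL was set against 8C to ask whether the transcripts changed after 8C. A fall before 8C lies outside this comparison, as for MDM2, whose 8C mean was 0.03 of its 4C mean. It therefore cannot tell kept transcripts from lost ones. Of the 10 members tested other than BNC2 none was called, beside 0.496% of all loci called higher and 0.235% called lower. MDM2 is counted among these 10, though the filter favoured a rise after 8C for it. Of these 10, 2 (DNTTIP2 and ALG1) had an unadjusted p under 0.05, as 19% of all loci did. Apart from BNC2, edgeR called none either, where it called 0.313% of all loci higher and 1.79% lower.

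For BNC2 a fall after 8C was the only difference the filter let it show. Its call is therefore a description of these values and no evidence about the members. The difference was -4.13 on the log2 scale (SE 0.76, limma adjusted p = 0.0441), with all 8 later samples under both 8C embryos. The call was lost with the pseudocount 0.5 (limma adjusted p = 0.0544), with a replicate block (limma adjusted p = 0.0608) and when any sample other than 8C replicate 1 was left out. Over all alternatives fitted to these 10 samples or 9 of them its adjusted p ran from 0.0178 to 0.136.

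DNTTIP2 was higher after 8C by 1.38 on the log2 scale (SE 0.37), in all 8 samples against both 8C embryos, but missed the threshold (limma adjusted p = 0.0907). Without 8C replicate 1 its adjusted p in limma was 0.0434, the lowest of 0.0434 to 0.282 over the alternatives. That fit has a single 8C embryo, which is assumed to vary like the samples of the other stages. Groups without overlap made up 5.7% of all loci on the higher side and 4.45% on the lower side. Of the 10 members other than BNC2, whose separation the filter fixed, 1 was on the higher side (DNTTIP2) and none on the lower. ALG1 had a difference of -1.76 (SE 0.57, limma adjusted p = 0.136) and GNL2 one of -1.02 (SE 0.51, limma adjusted p = 0.306). GNL2 was at -1.71 without 8C replicate 1 and at -0.33 without 8C replicate 2. DESeq2 called ALG1 lower (DESeq2 adjusted p = 0.0199), where it called 2.67% of all loci lower and 0.926% higher. Without 8C replicate 1, and so against a single 8C embryo, the difference was -0.71 (limma adjusted p = 0.478), and over the alternatives the adjusted p ran from 0.0199 to 0.478. For PHKA2 the difference of -1.09 (SE 1.19) turned to 1.55 without 8C replicate 2. LOC614614, LOC100849584, ANKRD13A, CD72 and DERL2 had differences between -0.71 (DERL2) and 0.22 (LOC100849584), with limma adjusted p from 0.457 to 0.954. DERL2 was at -1.38 without 8C replicate 1 and at -0.04 without 8C replicate 2. MDM2 had a difference of 1.26 (limma adjusted p = 0.498), a direction that the filter had favoured. The median over the 11 members was -0.11 and over all loci 0.10. As the 11 include BNC2 and MDM2, nothing is read from this difference. The median over all loci moved to 0.40 with CPM, where no call of a member changed, to -0.036 with edgeR and to -0.072 with DESeq2.

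The blastocysts were set against the early and compact morulae to find members that changed as the blastocyst formed. None of the 11 members passed limma's threshold, beside 5.27% of all loci called higher and 3.48% called lower, and 2 had an unadjusted p under 0.05, as 25.7% of all loci did. DESeq2 called none as well, where it called 5.99% of all loci higher and 4.19% lower, and neither did edgeR, at 5.13% higher and 2.9% lower. BNC2, at 0 in both blastocysts and with 3 reads in EM replicate 2 as its only morula reads, could not be called here. PHKA2 and MDM2 had few reads, at most 12 and 14 in any of these samples. ALG1 was 1.57 higher on the log2 scale (SE 0.62, limma adjusted p = 0.138), with both blastocysts above all 4 morulae. Without 8C replicate 1, which removes that pair from the shared spread, its adjusted p in limma was 0.0484, the lowest of 0.0484 to 0.585 over the alternatives. LOC100849584 had a difference of -0.91 (SE 0.40, limma adjusted p = 0.176), with both blastocysts below all morulae. PHKA2 did likewise at values near the detection floor, and LHFPL3 lay above the morulae, all of which are listed at 0. Such separation held in 23.4% of all loci on the higher side and 17.3% on the lower. The member median, with BNC2 among the 11, was -0.04 and that over all loci 0.13. The median over all loci was -0.13 with TMM factors, another scaling of the samples, and -0.0092 with edgeR.

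**Figure D3:**
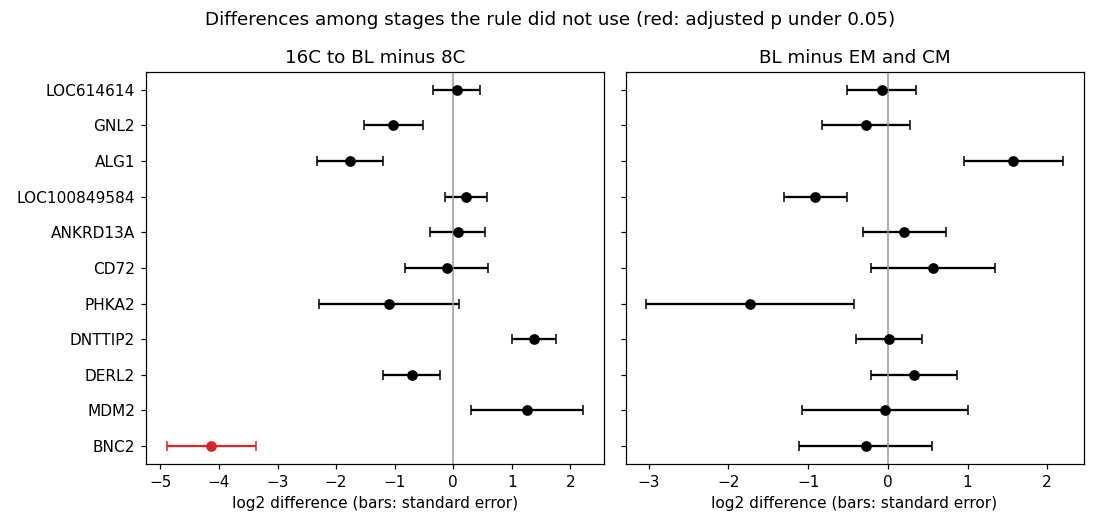
Differences on the log2(value + 1) scale for the 11 tested loci (points, with standard errors as bars), for 16C to BL minus 8C (left) and for BL minus EM and CM (right). BNC2 at -4.13, which entered the test through its 8C reads alone, is the only red point (adjusted p under 0.05), DNTTIP2 has the largest positive value on the left (1.38) and ALG1 on the right (1.57). MDM2 (1.26 on the left) entered through 16C and EM reads alone.

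Related genes, chosen after the members were known, took mixed courses. Of 49 related loci found, 28 could be tested. None was called in 16C to BL against 8C, where 0.496% of all loci were called higher and 0.235% lower. In BL against the morulae 2 were called higher and none lower, beside 5.27% of all loci higher and 3.48% lower, so that these counts are near the background. The nucleolar GTPase GNL3, a relative of GNL2, had 69.2 and 126 in MII and between 27.4 and 58.5 in 2C and 4C, below both oocytes. GNL3L is listed at 0 in MII and 2C and had 46.8 and 51.6 in 8C.

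In the ER pathway of ALG1, ALG6, which adds a glucose to the same lipid-linked glycan, was already at 182 and 282 in MII and had between 258 and 452 in 2C and 4C. ALG13, part of the enzyme that acts just before ALG1, had 142 and 296 in MII, between 91.8 and 219 in 2C and 4C and between 1.62 and 14.9 from 8C on. From 8C on, every sample was below both oocytes for ALG13 and above both for ALG1.

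Among partners of DERL2 in ER-associated degradation, DERL1 had 159 and 196 in MII and between 161 and 357 in 2C and 4C, an overlapping range. SEL1L, the adaptor of the same ligase complex, had 4.62 and 4.25 in MII and values between 18.6 and 32.3 in 2C and 4C, above both oocytes but under the limit of 50. The ligase SYVN1 had 84.0 and 274 in MII, between 26.6 and 116 in 2C and 4C and 819.7 and 742 in 8C. EDEM2, which trims mannose from misfolded glycoproteins, was higher in BL than in the morulae by 2.75 on the log2 scale (limma adjusted p = 0.0427).

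Around MDM2, MDM4, its relative and binding partner, had 19.4 and 51.1 in MII and between 38.0 and 77.7 in 2C and 4C. CCNG1, cyclin G1, was high in MII at 127 and 325 and had 200.2 and 161 in 2C, within the MII range, and 58.1 and 83.7 in 4C. A second locus named MDM2 had 8 reads over all samples.

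For PHKA2, a catalytic subunit of phosphorylase kinase, PHKG1, followed another course, with between 0 and 4.61 up to 4C and 128 and 129.9 in BL. It was higher in BL than in the morulae by 2.66 on the log2 scale (limma adjusted p = 0.0285). The other catalytic subunit, PHKG2, had 0 in MII, between 0 and 2.77 in 2C and 4C and 13.2 and 11.1 in BL. PHKA1 sits in that stretch of zeros as well and tells nothing. LHFPL2, a relative of LHFPL3, had 7.38 and 1.06 in MII and between 15.03 and 33.2 in 2C and 4C, and it kept between 11.6 and 43.6 from 16C to BL, where LHFPL3 had no more than 3 reads. BNC1, the relative of BNC2, had between 2.77 and 25.2 in 2C and 4C.

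**Figure D4:**
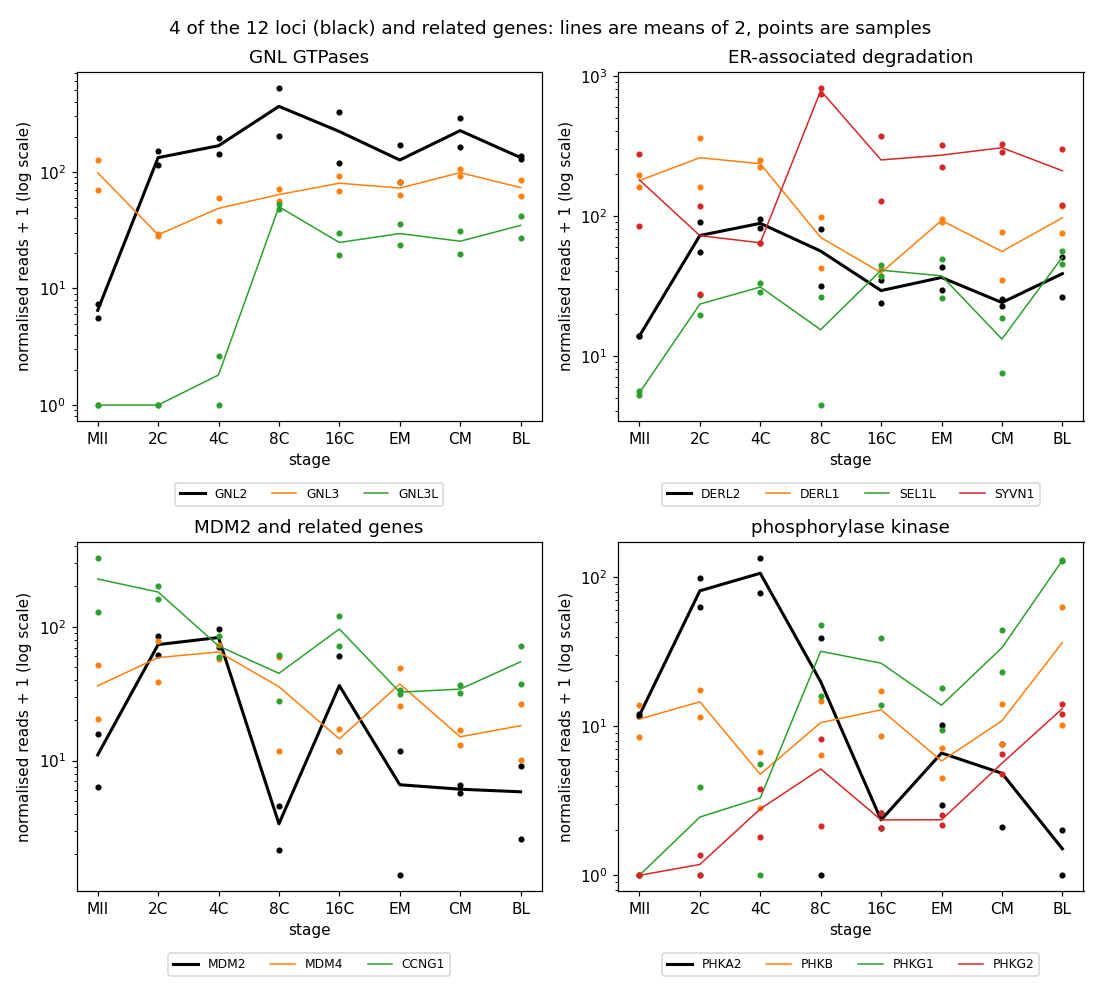
Normalised reads plus 1 on log axes (vertical) by stage (horizontal) for GNL2, DERL2, MDM2 and PHKA2 (black) and related genes (colours), with points for samples and lines for the mean of 2. GNL3 is lower in 2C and 4C than in MII, where GNL2 is higher, and PHKG1 reaches 128 and 129.9 in BL while PHKA2 is at 1.01 and 0.

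Of 25 gene lists, 3 held a member each. The lists are incomplete: those for ubiquitin enzymes, for zinc finger proteins and for the nucleolus do not name MDM2, BNC2 and DNTTIP2, so these counts say little about what the members do. The list for the nucleolus and ribosome biogenesis (105 loci) held GNL2, that for cell death (67 loci) held MDM2, and that for cytoskeleton, adhesion and junctions (595 loci) held ANKRD13A, by its name's start alone. Of 73 nucleolar loci tested, limma called none in 16C to BL against 8C, and in BL against the morulae 2 were higher and 1 lower. Of 28 cell death loci tested, 1 was higher and 1 lower in BL, and of 150 cytoskeletal loci 15 were higher and 8 lower, beside 5.27% higher and 3.48% lower over all loci. None of the 30 loci of factors linked to the first wave of genome activation was a member.

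For the genes next to the members, RefSeq held 11 of the 12 names, all but LOC100849584, and 22 neighbours, 17 of which had values. A single neighbour, ORC5, had a mean of 50 or more in 2C and 4C, as 8.46% of all loci with a gene name did, and it had 121.8 in MII and 66.1 in 2C and 4C. Another 6 neighbours are at 0 in MII, 2C and 4C. GCLM had a mean of 2.06 in MII and 22.4 in 2C and 4C, and TBC1D10B 1.85 and 18.6. SLC35E3, next to MDM2, had 186 in MII and 39.4 in 2C and 4C.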

How the data were processed

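RNA of 16 single oocytes and embryos, 2 per stage at 8 stages, had been amplified and sequenced on the SOLiD platform by the authors. The submitters' processing notes name cutadapt, FastQC, TopHat, Cufflinks and HTSeq, and the genome build is not given in the sources used here. The deposited values are a signal: read counts per locus divided by a size factor. Whole reads were recovered from them, at least 99.99% of values lying within 0.001 of a whole number of reads, and gave 607672 to 3379426 reads per sample (median 1347534). Every column of values was tied to a sample by its name.

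The 12 members were counted with no test on MII, 2C or 4C values. The later 10 samples were fitted with limma 3.58.1 (trend, log2(value + 1)) in R 4.3.3 on the 7665 loci kept by filterByExpr, and p-values were adjusted by Benjamini and Hochberg over all of them. Nothing in the labels says that the 2 samples of a stage came from separate donors, so p-values measure the spread between these samples only. Alternatives were edgeR 4.0.16 (quasi-likelihood) and DESeq2 1.42.0 on recovered reads, other scalings, pseudocounts, filters, samples and left-out samples. As there are fewer than 40 members, all are named, with the 3 loci on either side of each limit. Members, lists and relatives were chosen with earlier results of these data known. Neighbours came from the RefSeq annotation of ARS-UCD2.0. Promoter and protein sequences were not used here. Values are given for only some of the related genes, and 1 was left out of their counts.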

Additional observations from a re-analysis of the deposited data

How the results depend on the processing

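The number of loci chosen moved with its limits: 38 with CPM, of which 8 were among the 12 (CD72, LHFPL3, DERL2 and BNC2 were not), 26 with a limit of 25, 5 with 100, 53 with a fold of 2 and 2 with a fold of 8. Leaving out 1 of the 6 samples gave 14 to 64 loci.

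For the stage effect, no member was called by limma, but DESeq2 called 2, and 1 was called with the pseudocount 5 and with all 16 samples, a fit that takes in the samples that chose the members. Over all loci 258 were called, against 959 with DESeq2, 155 with the pseudocount 0.5, 507 with 5, 145 with no filter and 725 with all 16 samples. Leaving out a sample gave 0 to 1 members and 0 to 1125 loci.

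For 16C to BL against 8C, the 1 member called was BNC2, whose difference the filter fixed, so its calls are no evidence about the members. ALG1 was called beside it with DESeq2, and with the pseudocount 0.5 no member was called. Over all loci, 56 were called (38 higher and 18 lower), against 161 with edgeR (24 and 137), 276 with DESeq2 (71 and 205), 89 with CPM (71 and 18), 33 with no filter (11 and 22), 221 with all 16 samples and 0 to 580 with a sample left out. With the pseudocount 5, 34 were higher and 45 lower. For BL against the morulae, 0 to 1 members and 68 to 1134 loci were called with a sample left out, against 671 (404 higher and 267 lower), and TMM factors gave 331 higher and 389 lower. The cause was not tested.

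Uncalled members changed sign in some settings. In 16C to BL against 8C, LOC614614 was at -0.0159 with edgeR and -0.0415 with DESeq2, and CD72 at 0.0157 with edgeR and 0.20 with CPM. In BL against the morulae, ANKRD13A was at -0.0593 with TMM factors, DNTTIP2 at -0.15 with edgeR, -0.025 with DESeq2, -0.0811 with CPM and -0.26 with TMM factors, and MDM2 at 0.0071 with the pseudocount 0.5. With a sample left out, 16C to BL against 8C ran from -0.48 to 0.60 for LOC614614, -0.31 to 0.46 for ANKRD13A, -0.53 to 0.30 for CD72 and -3.73 to 1.55 for PHKA2. BL against the morulae ran from -0.30 to 0.14 for LOC614614, -0.16 to 1.30 for CD72, -0.17 to 0.20 for DNTTIP2, -0.15 to 0.80 for DERL2 and -0.94 to 0.87 for MDM2. For BNC2 it ran from -0.56 to 0 and so did not turn positive.

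Replicate numbers did not pair the samples: over 10 pairs of stages the correlation of deviations ran from -0.11 to 0.16 and passed 0.1 in 1. With the replicate number as a block, the members called in 16C to BL against 8C were 0 and all loci called 22 (14 higher and 8 lower).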
